A study of Mus musculus with 18 samples.

Results

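DNA replication and replication-linked repair genes are described here across a time course of myocardial infarction in mice. The 44 genes encode the proteins that load and switch on the replicative helicase, make and join the new strands, supply deoxynucleotides, repair broken or crosslinked forks, signal stalled forks and put nucleosomes back on new DNA. They were taken from a list of names, with no measured value in the rule, and were found through their Ensembl gene IDs among the 30583 genes in the deposited count table. By role they comprised 10 genes of origin licensing, 5 of helicase activation, 7 of primase and the polymerases, 6 of the sliding clamp, clamp loader and single-strand binding, 4 of nucleotide supply, 2 of Okazaki fragment maturation, 6 of recombination and crosslink repair, 2 of the checkpoint and 2 of chromatin assembly. All 44 passed the filter on low counts.

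The study used 18 male C57BL/6JR mice, 12 weeks old, in 6 groups of 3. In 5 groups the left anterior descending coronary artery was tied under sodium pentobarbital, and the hearts were taken 10 min later or 1, 6, 24 or 72 h later. The sham group (0 h) had the operation with the suture passed through but not tied. RNA came from the infarcted region of the left ventricle, and the labels name cardiomyocytes as the cell type but describe no separation of cells. The libraries held markers of cardiomyocytes, macrophages, fibroblasts, endothelium and smooth muscle at all times, so they are treated as whole tissue. Nothing in the labels describes any genetic change in these mice or any treatment beyond the operation. No sham group was taken at the later times, so time after surgery and time after ligation cannot be told apart.

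Replication is prepared in G1 phase, when the origin recognition complex, Cdc6 and Cdt1 load the Mcm2 to Mcm7 ring onto DNA. It starts in S phase, when Cdc45 and the GINS complex turn that ring into an active helicase. Many genes of this machinery are transcribed at the G1/S boundary under E2F factors, which the retinoblastoma protein family holds back in resting cells. Adult cardiomyocytes seldom divide, while leukocyte precursors, fibroblasts and endothelial cells can enter the cell cycle after injury.

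Sequences before the start sites of members were read from RefSeq promoter windows (build GRCm38.p6, 250 bases before to 50 after each start site), which held 36 of the 44 genes. An E2F-type motif, any of TTTCGCGC, TTTGGCGC, TTTCCCGC or TTTGCCGC on either strand, was present in 15 of the 36 (41.67%), against 2.6% of the 27025 genes in the same table and 5.0% of 20 mitosis genes. The motif was not particular to the members. It was present in 5 of 12 genes of the E2F and RB family with an entry (41.67%). Among replication genes outside the 44 it was in 7 of 32 (21.88%), and among other replication-linked repair genes in 5 of 25. In the upstream bases alone the E2F-type share was 25.0% of members against 2.16% of all genes. There it was 33.33% of the E2F and RB family, 4 of 32 other replication genes and 3 of 25 other repair genes. The stretches upstream of Mcm5 and Mcm6 are shown because these are the members with several matches in sequence that lies outside every annotated GENCODE and RefSeq gene, and because their transcripts are among those with the smallest adjusted p at 24 h. Capitals mark E2F-type matches, including overlapping matches on opposite strands.
Mcm5, chr8:75109326-75109397, plus strand: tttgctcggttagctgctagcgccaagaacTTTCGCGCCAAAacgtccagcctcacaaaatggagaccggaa
Mcm6, chr1:128359715-128359845, minus strand: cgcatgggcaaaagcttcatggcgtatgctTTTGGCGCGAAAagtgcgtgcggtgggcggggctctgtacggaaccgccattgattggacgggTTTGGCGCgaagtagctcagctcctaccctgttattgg
In Mcm5 the matches began at -153 and -149 relative to the start site, as TTTCGCGC on the plus strand of the gene and TTTGGCGC on the other strand, and they overlapped. In Mcm6 they began at -110, -106 and -47. The first 2 overlapped with the words on swapped strands, TTTGGCGC on the strand of the gene and TTTCGCGC on the other. Over all members there were 21 matches, of which 13 lay within 60 bases of the start site, 8 after it and 1 at it. The NF-Y box CCAAT, on either strand, was in at least 1 window of 58.33% of members, 41.06% of all genes and 80.0% of mitosis genes. The CHR box TTTGAA, on either strand, was in at least 1 window of 11.11% of members, 20.23% of all genes and 70.0% of mitosis genes. A match of letters is a description of the window and was not tested as a binding site.

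**Figure D1:**
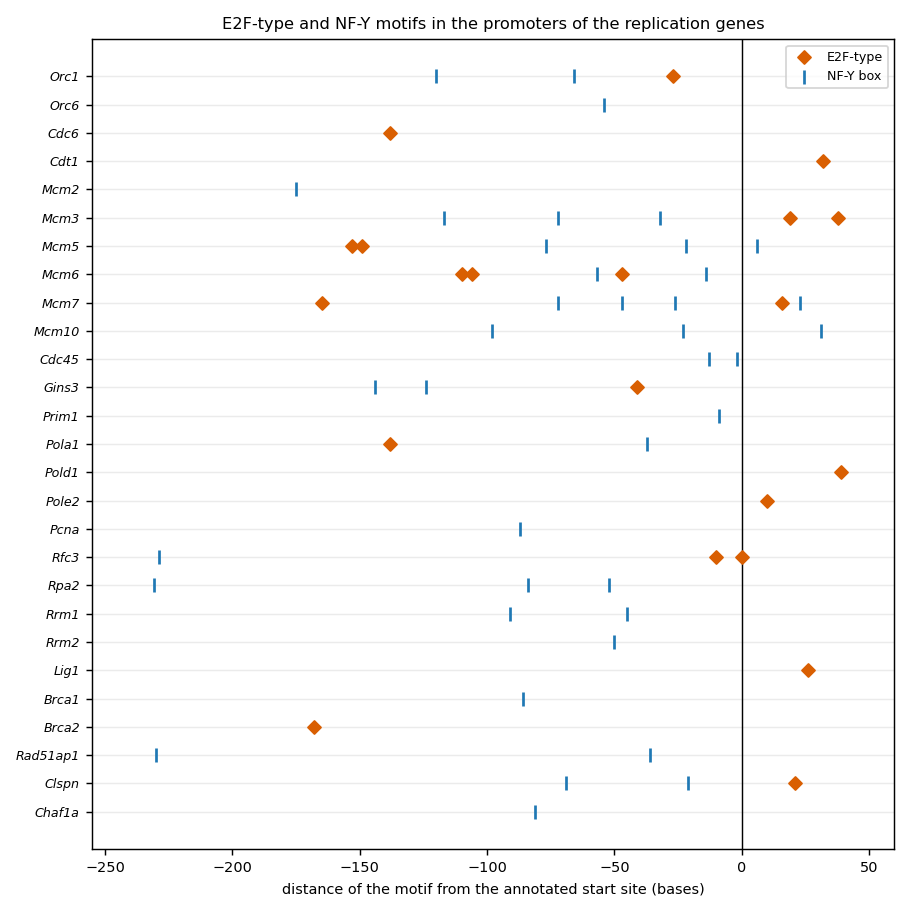
Distance in bases from the RefSeq start site of each E2F-type motif and each NF-Y box in the promoter windows of the 36 members with an entry, by gene. Of the 21 E2F-type matches, 13 lie within 60 bases of the start.

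Library totals ran from 18.2 to 25.06 M counts (M stands for mega), and 16311 genes were tested. Levels are given as CPM, counts per M counts of a library after TMM scaling, and a gene is called where its edgeR p-value adjusted over all genes tested is under 0.05. Fold changes are those of the fitted model on the log2 scale, with standard errors (SE). Each replicate is 1 mouse per the labels. The share of counts from mitochondrial genes was 23.83 to 26.13% in sham and 8.41 to 10.53% at 72 h, and without TMM scaling the median of all genes moved by 0.61 at 72 h, 0.20 at 24 h and -0.12 at 6 h on the log2 scale. Changes below are therefore relative to that scaling.

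The libraries at 24 h did not form an even group. Replicate 2 at 24 h held the highest value of its group for 43 of the 44 members (97.7%) and for 23 of 24 mitosis genes, against 30.8% of all genes. Summed over the members it reached 423.5 CPM, beside 289.1 CPM in replicate 1 and 320.5 CPM in replicate 3. Its summed fibroblast markers, collagens and Pdgfra among them, were also the highest of the group at 1402 CPM (929.1 in the lowest), and its neutrophil markers the lowest. The part of these markers in the result was not tested. Values without this library are given below for the counts, medians and calls that it moves most.

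Across the time course the summed level of the replication genes stayed near that of sham until 6 h and was higher at 24 h and higher again at 72 h. Over the 44 members it was 217.8 to 233.9 CPM in sham, 223 to 231.1 at 10 min, 215.3 to 224.3 at 1 h and 233.5 to 242.2 at 6 h. It was 289.1 to 423.5 CPM at 24 h and 704.5, 913.2 and 751.8 CPM in the 3 libraries at 72 h, a fold of group means of 1.53 and 3.50 over sham. Every library at 24 h lay above every library at earlier times in this sum, and every library at 72 h lay above every library at 24 h.

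At 10 min and at 1 h no member was called by edgeR in either direction, where 0.0736% and 0.294% of all genes were called. An unadjusted edgeR p under 0.05 was reached by 3 of the 44 members at 10 min (Cdc45, Rfc3 and Exo1) and by 1 at 1 h (Pole2). Of all 16311 genes tested, 1144 reached it at 10 min and 899 at 1 h, so these members do not stand out. DESeq2 called 0 members at both times. At 6 h, 3 members were called higher than sham (16.3% of all genes were) and 3 lower (12.2% of all genes). At 24 h, 26 of 44 members were called higher (23.7% of all genes) and 0 lower (20.2% of all genes). At 72 h, 42 were called higher (34.2% of all genes) and 0 lower (32.2%), with 0 members lower at an unadjusted p under 0.05 or by DESeq2 at either time. The 42 include members that could pass the filter on low counts through their 72 h libraries, so their calls are not independent of that filter. Fanci had 2 counts in all of sham and 289 at 72 h, and Exo1 had 0 and 291. The median log2 fold change of the members against sham was -0.05 at 6 h, 0.87 at 24 h and 2.28 at 72 h, beside -0.01, 0.01 and 0.03 for all genes tested.

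Between neighbouring times, 4 members were called higher at 6 h than at 1 h (Orc6, Pola2, Pcna and Tyms, where 14.5% of all genes were called higher). From 6 h to 24 h, 28 members were called higher (14.2% of all genes), and from 24 h to 72 h, 42 (24.4% of all genes). The median log2 fold change was 0.92 for the first step and 1.40 for the second. An F test over all times called 42 members (78.4% of all genes), and the exceptions were Pola2 and Rpa2. Without replicate 2 at 24 h, 21 of the 26 calls against sham and 16 of the 28 calls against 6 h were kept, and the count from 24 h to 72 h stayed at 42. The median log2 fold change was then 0.61 at 24 h against sham, 0.47 from 6 h to 24 h and 1.68 from 24 h to 72 h. Of the members named below, Pcna, Rfc5, Tyms and Rad51ap1 then lost their call from 6 h to 24 h (adjusted p = 0.0985, 0.233, 0.124 and 0.0930). With each of the 6 libraries of this contrast left out in turn, these calls were lost in 4, 4, 3 and 1 of the fits.

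**Figure D2:**
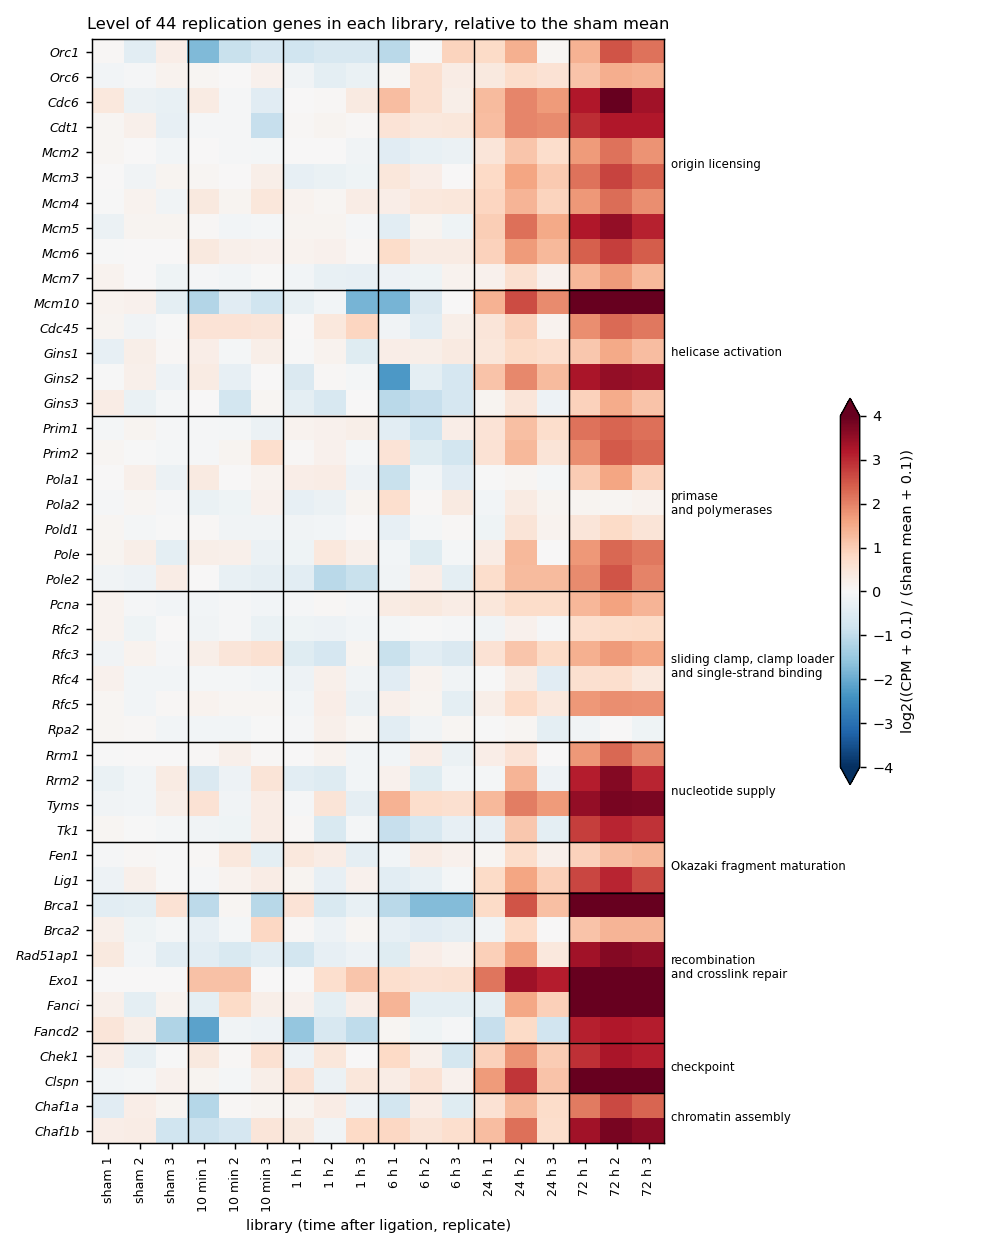
Level of each of the 44 members (rows, by role) in each of the 18 libraries (columns, by group), as log2 of CPM + 0.1 relative to the sham mean + 0.1, with colours limited at 4 in either direction. The columns at 72 h are the highest for nearly all rows, and replicate 2 stands above its neighbours at 24 h.

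Members called at both 24 h and 72 h numbered 26, and all 26 were also called from 24 h to 72 h. The patterns in this paragraph were not counted over all genes. Of all genes, 23.7% were called higher at 24 h, 34.2% at 72 h and 24.4% from 24 h to 72 h. Another 16 were called at 72 h and not at 24 h: Orc1, Mcm7, Cdc45, Gins3, Pola1, Pold1, Pole, Rfc2, Rfc4, Rrm1, Rrm2, Tk1, Fen1, Brca2, Fanci and Fancd2. Of these, Mcm7, Cdc45, Gins3, Pole and Tk1 were called higher at 24 h than at 6 h. The group mean was highest at 72 h for 42 of 44 members, and it was lowest at 6 h for 19. The fold over sham at 72 h was at least 4 for 27 members and at least 8 for 15. Mean levels under 1 CPM were found for 14 members in sham and for 0 at 72 h.

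**Figure D3:**
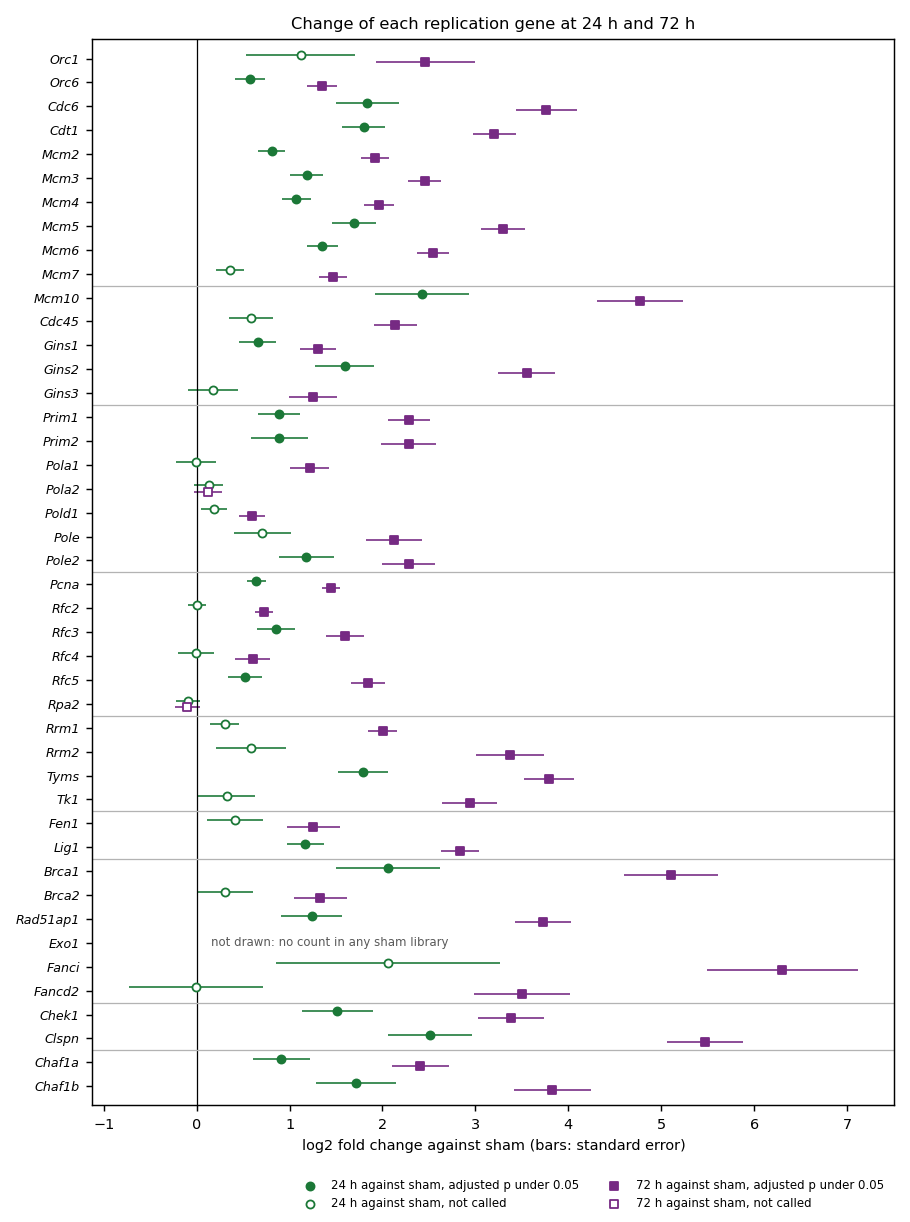
Log2 fold change against sham at 24 h and at 72 h for each member, with its SE, ordered by role. Filled points passed an adjusted p of 0.05. Exo1 is not drawn because its sham libraries held no counts. The points at 72 h lie to the right of those at 24 h for all members drawn except Pola2 and Rpa2.

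The origin licensing genes, which mark origins in G1 and load the helicase ring, were called higher in 8 of 10 at 24 h (median log2 fold change 1.15) and in 10 of 10 at 72 h (2.46). Their summed level was 51.04 to 53.28 CPM in sham, 58.21 to 59.47 at 6 h, 85.37 to 138.9 at 24 h and 222.8 to 299.7 at 72 h. Mcm6 (ENSMUSG00000026355, chr1:128331590-128359664, minus strand), a subunit of the ring, was at 8.49, 8.71 and 8.71 CPM in sham, 8.98 to 11.3 over the libraries at 10 min and 1 h, 14.5, 10.9 and 10.8 at 6 h, 16.5, 28.5 and 21.1 at 24 h and 45.5, 59.1 and 46.6 at 72 h. Its libraries at 24 h lay above all earlier ones, and those at 72 h above those at 24 h. Against sham Mcm6 differed at 24 h (log2 fold change 1.35 ± 0.17 (SE), adjusted p = 1.04e-05) and at 72 h (log2 fold change 2.54 ± 0.17 (SE), adjusted p = 6.00e-10).

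Cdt1 (ENSMUSG00000006585, chr8:122568015-122573554, plus strand), the loading factor that brings the ring to the origin, was at 1.57, 1.71 and 1.15 CPM in sham, 2.21, 2.01 and 2.08 at 6 h, 3.63, 5.98 and 5.77 at 24 h and 12.1, 14.4 and 14.4 at 72 h. Its 24 h libraries did not overlap those of any earlier time (log2 fold change 1.80 ± 0.23 (SE), adjusted p = 1.61e-05), and at 72 h it was 9.22-fold above sham (log2 fold change 3.20 ± 0.23). Mcm5 (ENSMUSG00000005410, chr8:75109569-75128439, plus strand), another ring subunit, was at 3.44, 4.30 and 4.31 CPM in sham, 3.70 to 4.38 at 10 min and 1 h, 2.98, 4.31 and 3.52 at 6 h, 8.07, 19.0 and 11.8 at 24 h and 37.6, 46.7 and 34.5 at 72 h. Mcm5 stayed between 2.98 and 4.38 CPM until 6 h, and at 24 h its highest library held more than 2 times its lowest. The differences from sham were 1.69 ± 0.23 at 24 h (adjusted p = 3.26e-05) and 3.30 ± 0.24 at 72 h (adjusted p = 2.11e-09) on the log2 scale.

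Other ring subunits changed by different amounts at 72 h: Mcm3 by 2.45 ± 0.18, Mcm4 by 1.96 ± 0.16, Mcm2 by 1.92 ± 0.15 and Mcm7 by 1.47 ± 0.15 in log2 fold change. Mcm7 was the only ring subunit not called at 24 h (0.36 ± 0.15, adjusted p = 0.0636). Cdc6, the ATPase that works with Cdt1, rose by 1.84 ± 0.34 at 24 h and 3.76 ± 0.33 at 72 h. Orc1 and Orc6, subunits of the origin recognition complex, rose by 2.46 ± 0.53 and 1.35 ± 0.16 at 72 h. Orc1 had 15 counts in all of sham and 131 at 72 h, a ratio of 5.60 with a counting interval of 3.28 to 10.3. Differences between subunits in these changes were not tested.

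Per kilobase of gene length, the 6 ring subunits sat within 2.21-fold of each other in sham (Mcm5 lowest at 1.01 CPM per kilobase, Mcm7 highest at 2.23) and within 2.12-fold at 72 h (Mcm2 lowest at 5.09, Mcm6 highest at 10.8). The order within the ring thus changed while the spread of levels was alike at both times. At 6 h the spread was 2.87-fold, with Mcm5 lowest and Mcm6 highest.

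Helicase activation genes were called higher in 3 of 5 at 24 h and 5 of 5 at 72 h, with median log2 fold changes of 0.66 and 2.14. Mcm10 (ENSMUSG00000026669, chr2:4989714-5012791, minus strand), which helps start unwinding, was at 0.303, 0.311 and 0.178 CPM in sham, 0, 0.144 and 0.266 at 6 h, 0.863, 2.12 and 1.24 at 24 h and 5.77, 8.16 and 7.86 at 72 h. It rested on 16 counts in all of sham, and its ratio at 72 h was 28.0 with a counting interval of 17.1 to 49.2. The fitted log2 fold change at 72 h was 4.77 ± 0.47 (adjusted p = 5.90e-08), and at 24 h 2.43 ± 0.50 (adjusted p = 9.40e-04). Cdc45, which joins the ring to GINS, was at 2.22 CPM on average in sham, 3.31 at 24 h and 9.80 at 72 h, and was called at 72 h (2.14 ± 0.23) and not at 24 h.

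The GINS subunits Gins2 and Gins3 sat lowest at 6 h. Gins2 (ENSMUSG00000031821, chr8:120578633-120589304, minus strand) was at 0.960, 1.14 and 0.844 CPM in sham, 0.119, 0.718 and 0.586 at 6 h, 2.29, 3.997 and 2.53 at 24 h and 10.4, 12.3 and 11.8 at 72 h. Its difference at 6 h did not pass the test (log2 fold change -0.99 ± 0.40 (SE), adjusted p = 0.0704), and DESeq2 gave an adjusted p of 0.0485. It rose at 24 h (1.59 ± 0.32) and at 72 h (log2 fold change 3.55 ± 0.31 (SE), adjusted p = 1.53e-08). Exons of Gse1 on the other strand cover 67.32% of the exonic bases of Gins2, so reads of these genes cannot be told apart without knowledge of strand use, which is not given in the sources used here.

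Gins3 (ENSMUSG00000031669, chr8:95633453-95645060, plus strand) was at 2.48, 1.66 and 1.91 CPM in sham, 1.176 to 2.12 at 10 min and 1 h, 0.894, 1.00 and 1.23 at 6 h, 2.20, 2.83 and 1.75 at 24 h and 3.91, 5.88 and 4.61 at 72 h. It fell at 6 h (log2 fold change -0.95 ± 0.30 (SE), adjusted p = 0.0234), rose from 6 h to 24 h (1.12 ± 0.29), and ended above sham at 72 h (log2 fold change 1.25 ± 0.26 (SE), adjusted p = 3.43e-04). All of its 6 h libraries were below all sham libraries, and its 24 h libraries overlapped sham. Gins1 rose to 4.35 CPM at 24 h and 6.84 CPM at 72 h from 2.76 CPM in sham. Per kilobase, Gins1 stood 7.601-fold above Gins2 in sham and 19.4-fold above it at 6 h, and the 3 subunits were within 2.55-fold at 72 h. The Gins2 levels carry the overlap with Gse1 given above, and at 6 h they rest on 28 counts in all. These ratios may therefore not reflect the balance of the subunits.

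Primase and polymerase genes were called in 3 of 7 at 24 h (median log2 fold change 0.70) and 6 of 7 at 72 h (2.12). Prim1 (ENSMUSG00000025395, chr10:128015168-128030037, plus strand), the catalytic primase subunit, was at 2.02, 2.33 and 2.04 CPM in sham, 1.55, 1.20 and 2.56 at 6 h, 3.15, 5.09 and 3.51 at 24 h and 9.94, 11.2 and 10.2 at 72 h (log2 fold change 2.29 ± 0.22 (SE), adjusted p = 5.53e-08). Its partner Prim2 rose by 2.28 ± 0.30 at 72 h. Pole2 (ENSMUSG00000020974, chr12:69201773-69228195, minus strand), the second subunit of polymerase epsilon, was at 0.657, 0.622 and 0.933 CPM in sham, 0.531, 0.296 and 0.3498 at 1 h, 1.25, 1.91 and 1.91 at 24 h and 3.00, 4.72 and 3.18 at 72 h (log2 fold change 2.28 ± 0.29 (SE), adjusted p = 1.24e-06). In both genes every library at 24 h and at 72 h lay above every sham library.

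The catalytic subunits of the leading and lagging strand polymerases, Pole and Pold1, were not called at 24 h. At 72 h Pole rose by 2.12 ± 0.30 and Pold1 by 0.59 ± 0.14, and Pola1, the catalytic subunit of polymerase alpha, rose by 1.22 ± 0.21. Pola2 (ENSMUSG00000024833, chr19:5940542-5964202, minus strand), the accessory subunit that ties polymerase alpha to primase, was at 13.2, 14.2 and 13.2 CPM in sham, 10.7, 11.6 and 14.6 at 1 h, 21.5, 14.1 and 17.4 at 6 h, 12.7, 17.2 and 14.6 at 24 h and 14.7, 14.5 and 15.0 at 72 h. Its level at 72 h differed from sham by 0.12 ± 0.15 (adjusted p = 0.505), and its single call between neighbouring times was from 1 h to 6 h (log2 fold change 0.52 ± 0.16 (SE), adjusted p = 0.0222). Without TMM scaling the 72 h difference was 0.71 (adjusted p = 7.62e-04), close to the 0.61 by which the median of all genes moved under that scaling.

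Among the sliding clamp, clamp loader and single-strand binding genes, 3 of 6 were called at 24 h (median log2 fold change 0.26) and 5 of 6 at 72 h (1.09). Pcna (ENSMUSG00000027342, chr2:132249162-132253314, minus strand), the sliding clamp that holds polymerases on DNA, was at 45.8, 39.98 and 38.6 CPM in sham, 38.4 to 43.2 at 10 min and 1 h, 52.0, 54.4 and 51.0 at 6 h, 56.5, 68.6 and 69.2 at 24 h and 104, 128 and 107 at 72 h. Pcna rose at 6 h (log2 fold change 0.34 ± 0.10 (SE), adjusted p = 0.0151), at 24 h (0.64 ± 0.10, adjusted p = 7.11e-05) and at 72 h (1.45 ± 0.10, adjusted p = 8.54e-10). Per kilobase it was the most abundant member in every group, from 17.3 CPM per kilobase in sham to 47.0 at 72 h. Its fold at 72 h was 2.72, and the median fold of the members was larger.

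The clamp loader subunits Rfc2 to Rfc5, which open the clamp around DNA, were called in 2 of 4 at 24 h and in 4 of 4 at 72 h. Rfc5 (ENSMUSG00000029363, chr5:117378103-117389047, minus strand) was at 3.39, 2.96 and 3.29 CPM in sham, 3.70, 3.49 and 2.45 at 6 h, 3.75, 5.66 and 4.38 at 24 h and 10.8, 12.0 and 11.7 at 72 h. Its call at 24 h (log2 fold change 0.52 ± 0.19 (SE), adjusted p = 0.0294) was lost without replicate 2 at 24 h (log2 fold change 0.34, adjusted p = 0.176) and without any 1 of the sham libraries (adjusted p = 0.0525, 0.0981 and 0.0624 without replicates 1, 2 and 3). At 72 h it was 3.58-fold above sham (1.84 ± 0.18, adjusted p = 6.78e-08).

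Rfc3 (ENSMUSG00000033970, chr5:151642756-151651242, minus strand) was at 2.93, 3.58 and 3.11 CPM in sham, 3.80, 4.54 and 4.91 at 10 min, 2.27, 1.95 and 3.50 at 1 h, 1.67, 2.34 and 2.13 at 6 h, 4.83, 7.003 and 5.52 at 24 h and 8.67, 10.8 and 9.61 at 72 h. It was lowest at 6 h (log2 fold change -0.64 ± 0.22 (SE), adjusted p = 0.0406) and then rose to 24 h (log2 fold change 1.49 ± 0.22 (SE), adjusted p = 1.19e-04), where it was above sham (0.85 ± 0.21). Rfc2 and Rfc4 changed at 72 h by 0.73 ± 0.10 and 0.60 ± 0.19. Per kilobase, the 4 loader subunits spanned 5.0-fold in sham and 2.12-fold at 72 h, with Rfc4 the most abundant at both times.

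Rpa2 (ENSMUSG00000028884, chr4:132768332-132778752, plus strand), a subunit of the single-strand binding protein RPA, was at 16.03, 15.9 and 14.1 CPM in sham, 11.4, 14.02 and 16.4 at 6 h, 15.2, 16.1 and 11.7 at 24 h and 13.97, 15.4 and 13.6 at 72 h. The groups overlapped, and the difference from sham at 72 h was -0.10 ± 0.13 (adjusted p = 0.517). Without TMM scaling this difference turned to 0.49 (adjusted p = 0.00588), below the shift of all genes. The other RPA subunits, which are not members and were singled out after their values were seen, were not called at 72 h either, with log2 fold changes of -0.04 ± 0.12 for Rpa1 and 0.17 ± 0.18 for Rpa3.

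**Figure D4:**
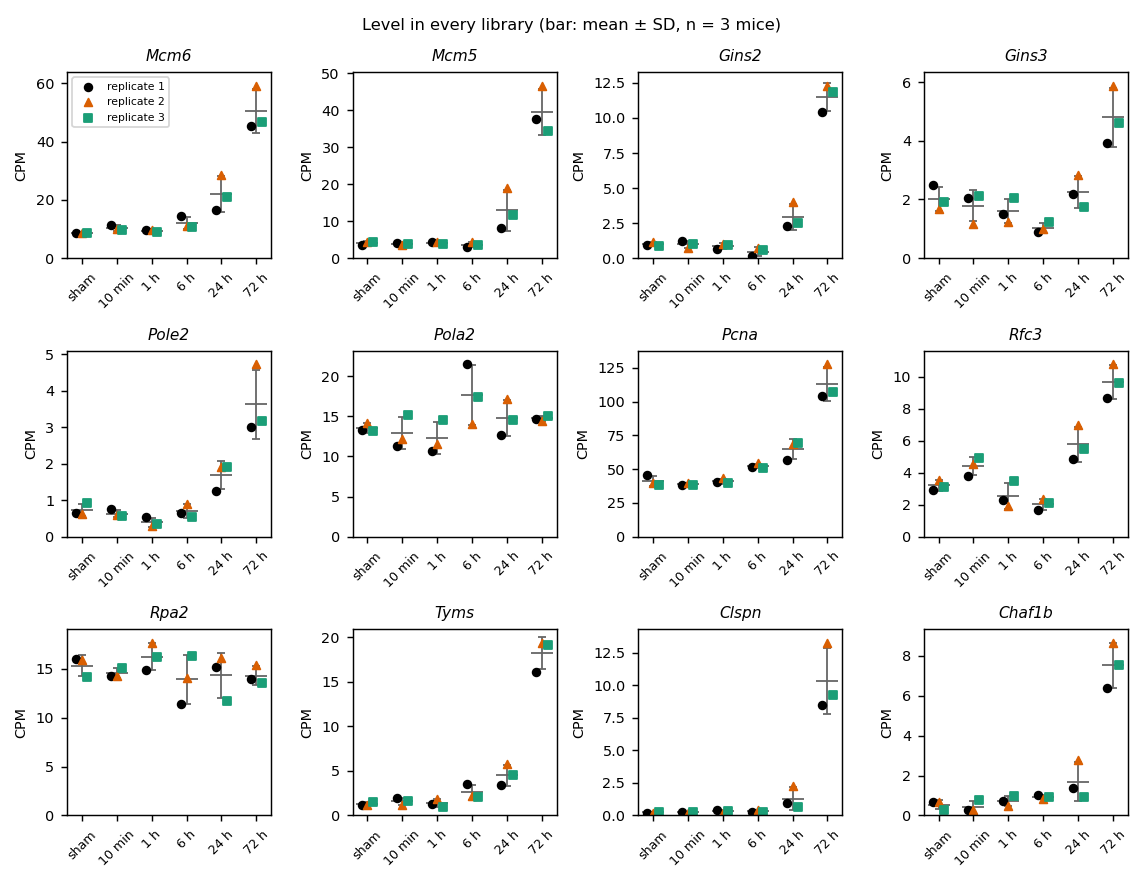
CPM in each library, by group, for 12 members that the text describes, each panel on its own axis. Points are single mice. Pola2 and Rpa2 stay within 10.7 to 21.5 and 11.4 to 17.65 CPM over all times, while the other 10 genes are highest at 72 h. Mcm5, Gins2, Gins3, Rfc3 and Rpa2 have their lowest group mean at 6 h.

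Nucleotide supply genes were called in 1 of 4 at 24 h and 4 of 4 at 72 h, with median log2 fold changes of 0.46 and 3.15. Tyms (ENSMUSG00000025747, chr5:30058202-30073617, minus strand), thymidylate synthase, was at 1.16, 1.19 and 1.55 CPM in sham, 0.991 to 1.99 at 10 min and 1 h, 3.58, 2.20 and 2.08 at 6 h, 3.37, 5.73 and 4.49 at 24 h and 16.1, 19.3 and 19.2 at 72 h. All of its libraries at 6 h were above all sham libraries (log2 fold change 0.99 ± 0.28 (SE), adjusted p = 0.0144), and its rise reached 3.46-fold at 24 h (1.79 ± 0.27) and 13.8-fold at 72 h (3.79 ± 0.27, adjusted p = 1.25e-09). Tk1, the salvage thymidine kinase, was at 3.64, 3.42 and 3.29 CPM in sham, 1.79, 2.20 and 2.72 at 6 h, 2.72, 7.36 and 2.63 at 24 h and 24.1, 29.0 and 26.2 at 72 h. Rrm2, the regulated subunit of ribonucleotide reductase, was at 1.57, 1.76 and 2.40 CPM in sham, 1.81, 5.02 and 1.65 at 24 h and 17.8, 25.3 and 16.6 at 72 h.

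At 24 h Tk1 and Rrm2 were above the sham range only in replicate 2. Tk1 differed from sham by 0.32 ± 0.31 at 24 h (adjusted p = 0.413) and by 2.94 ± 0.30 at 72 h (adjusted p = 1.66e-07). For Rrm2 the differences were 0.59 ± 0.38 (adjusted p = 0.217) and 3.37 ± 0.37 (adjusted p = 3.85e-07). Rrm1, the large reductase subunit, was more abundant in sham (15.6 CPM) and rose by 2.004 ± 0.16 at 72 h.

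In Okazaki fragment maturation, Lig1 (ENSMUSG00000056394, chr7:13277283-13311433, plus strand), the ligase that seals nicks between fragments, was at 3.39, 4.46 and 3.86 CPM in sham, 2.86, 3.16 and 3.68 at 6 h, 6.78, 11.8 and 7.63 at 24 h and 25.6, 33.1 and 24.8 at 72 h. It rose at 24 h (log2 fold change 1.17 ± 0.20 (SE), adjusted p = 2.23e-04) and at 72 h (log2 fold change 2.83 ± 0.20 (SE), adjusted p = 1.61e-09). Fen1, the flap nuclease, was called at 72 h (1.25 ± 0.28) and not at 24 h, and 84.19% of its exonic bases lie under exons of Gm10143 and Tmem258 on the other strand. Such overlap covered 10.69 to 15.95% of the exonic bases of Fanci, Rfc2, Rfc4, Mcm7, Orc1 and Rfc5.

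Recombination and crosslink repair genes were called in 3 of 6 at 24 h and 6 of 6 at 72 h, from a summed 2.488 to 3.438 CPM in sham to 26.62 to 35.04 CPM at 72 h. Rad51ap1 (ENSMUSG00000030346, chr6:126923050-126939587, minus strand), a homologous recombination factor, was at 0.859, 0.570 and 0.444 CPM in sham, 0.417, 0.766 and 0.692 at 6 h, 1.29, 2.16 and 0.876 at 24 h and 7.29, 9.10 and 8.46 at 72 h. At 72 h it was 13.2-fold above sham (3.73 ± 0.31, adjusted p = 7.17e-09). Its call at 24 h (log2 fold change 1.24 ± 0.33 (SE), adjusted p = 0.00512) was lost without replicate 2 at 24 h (0.81, adjusted p = 0.0512).

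Brca1 (ENSMUSG00000017146, chr11:101488764-101551955, minus strand), which protects and repairs broken forks, was at 0.152, 0.156 and 0.3998 CPM in sham, 0.0623, 0.252 and 0.0558 at 10 min, 0.386, 0.118 and 0.175 at 1 h, 0.0596, 0 and 0 at 6 h, 0.475, 1.84 and 0.670 at 24 h and 6.91, 10.2 and 8.46 at 72 h. These levels are low before 24 h: 15 counts in all of sham and 1 count in all of 6 h, a ratio of 0.0727 with a counting interval of 0.00173 to 0.473 (adjusted p = 0.0426). At 24 h there were 76 counts, and the log2 fold change against sham was 2.06 ± 0.56 (adjusted p = 0.00660). It was 1.21 (adjusted p = 0.0868) without replicate 2 at 24 h and 2.70 (adjusted p = 0.00706) without sham replicate 3. At 72 h there were 819 counts, a ratio to sham of 35.03 with a counting interval of 21.1 to 62.9 (adjusted p = 6.89e-08).

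Exo1, the exonuclease of mismatch repair and end resection, had 0 counts in all sham libraries. Against a floor of 3 counts per library it was at least 4.71-fold higher at 24 h and at least 20.6-fold higher at 72 h. Fanci and Fancd2, the paired proteins that mark crosslinked forks, were called at 72 h and not at 24 h. The 3 sham libraries together held 2 counts of Fanci, against 11 at 24 h and 289 at 72 h, a ratio at 72 h of 92.7 with a counting interval of 25.4 to 769. For Fancd2 the totals were 20, 24 and 364. Brca2, a homologous recombination factor, rose by 1.33 ± 0.28 at 72 h and was the lowest member per kilobase there, at 0.295 CPM per kilobase.

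Both checkpoint genes and both chromatin assembly genes were called at 24 h and at 72 h. Clspn (ENSMUSG00000042489, chr4:126556935-126593903, plus strand), the adaptor that passes the fork signal to Chek1, was at 0.202, 0.207 and 0.266 CPM in sham, 0.298, 0.383 and 0.266 at 6 h, 0.950, 2.26 and 0.619 at 24 h and 8.49, 13.2 and 9.26 at 72 h. It rose by 2.51 ± 0.45 at 24 h (adjusted p = 3.07e-04) and 5.47 ± 0.41 at 72 h (adjusted p = 2.47e-09). Without replicate 2 at 24 h the first value was 1.78 (adjusted p = 0.00179). Its 14 counts in sham became 995 at 72 h. Chek1, the fork checkpoint kinase, rose by 1.51 ± 0.38 and 3.38 ± 0.35 at these times.

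Chaf1b (ENSMUSG00000022945, chr16:93883901-93906115, plus strand), a subunit of the CAF-1 histone chaperone, was at 0.657, 0.674 and 0.266 CPM in sham, 1.01, 0.813 and 0.905 at 6 h, 1.38, 2.79 and 0.928 at 24 h and 6.40, 8.65 and 7.54 at 72 h. All 24 h libraries were above sham (log2 fold change 1.72 ± 0.43 (SE), adjusted p = 0.00376), and 72 h was 14.2-fold above sham (3.83 ± 0.41, adjusted p = 1.82e-07). Its partner Chaf1a rose by 2.41 ± 0.31, with 52.5% of its exonic bases under exons of Ubxn6 on the other strand.

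Each of the 6 calls at 6 h was lost when some single library was left out. Mcm6, Pcna and Tyms were higher by 0.48 ± 0.17 (adjusted p = 0.0433), 0.34 ± 0.10 and 0.99 ± 0.28, and Gins3, Rfc3 and Brca1 were lower. The Mcm6 call was lost without any 1 sham library or without replicate 1 at 6 h (adjusted p = 0.0905 to 0.224). Leaving out sham replicate 2 or 3 ended the Pcna call (adjusted p = 0.0606 and 0.0771). Leaving out sham replicate 1 or 2 or replicate 1 at 6 h ended the Tyms call (0.0513 to 0.104). The Gins3 call was lost without sham replicate 1 or replicate 1 or 2 at 6 h (adjusted p = 0.0577 to 0.105). The Rfc3 call was lost without any 1 sham library or without replicate 1 or 3 at 6 h (0.0600 to 0.161), and the Brca1 call without any 1 of the 6 libraries (0.0502 to 0.171). Neutrophil markers, at 3.033 to 4.564 CPM in sum in sham, were at 101 to 752 CPM at 6 h, and their part in these results was not tested.

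Further subunits of the same complexes lie outside the 44 members. They belong to a list of 40 other replication genes, of which 17 were called higher and 6 lower at 24 h and 25 higher and 5 lower at 72 h (median log2 fold change 0.34 and 0.72). The subunits named here were singled out after their values were seen. In the origin recognition complex, Orc2 rose by 0.47 ± 0.13 at 72 h, while Orc3 was at -0.19 ± 0.08, Orc4 at -0.12 ± 0.09 and Orc5 at -0.20 ± 0.12. The difference of Orc3 passed the test as lower (adjusted p = 0.0451) and turned to 0.40 without TMM scaling.

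Accessory subunits of polymerase delta moved in both directions at 72 h: Pold3 by 1.13 ± 0.13, Pold4 by 1.34 ± 0.17 and Pold2 by -0.26 ± 0.11, the last turning to 0.33 without TMM scaling. Gins4, the remaining GINS subunit, went from 15.0 to 23.4 CPM (0.65 ± 0.11), and Rfc1, the large clamp loader subunit, was at -0.01 ± 0.10 (adjusted p = 0.939). By the smallest adjusted p, the leading genes of this list were Dck, deoxycytidine kinase (3.37 to 21.1 CPM, 2.64 ± 0.17), and Dbf4, the activator of the origin-firing kinase Cdc7 (1.11 to 11.6 CPM, 3.36 ± 0.26).

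Other replication-linked repair genes numbered 33, of which 32 were tested (Atrip was not). At 24 h 9 were called higher (5 without replicate 2 at 24 h) and 2 lower, and at 72 h 17 higher and 4 lower, with a median log2 fold change of 0.66 at 72 h. Uhrf1, which reads hemimethylated DNA behind the fork, went from 1.26 to 31.5 CPM (4.63 ± 0.32), and Mms22l, a factor of stalled-fork recombination, from 0.327 to 6.47 CPM (4.29 ± 0.41). Of 16 genes of the E2F and RB family and their partners, 9 were called higher (4 without replicate 2 at 24 h) and 1 lower at 24 h, and 12 higher and 3 lower at 72 h. Foxm1, a cell cycle transcription factor, went from 0.464 to 16.9 CPM (5.16 ± 0.38) and Rbl1, an RB relative, from 4.42 to 14.6 CPM (1.72 ± 0.17). The lower genes at 72 h were E2f6 (-1.11 ± 0.14), Tfdp2 (-1.29 ± 0.23) and Rbl2 (-0.60 ± 0.18), and the Rbl2 difference was -0.01 without TMM scaling.

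The list of 24 mitosis genes holds mostly genes that act after replication, but not only these. Of 24, 14 were called higher at 24 h against sham (4 without replicate 2 at 24 h), 14 from 6 h to 24 h (4 without it) and 23 at 72 h against sham, and the median log2 fold change was 1.26 at 24 h and 5.89 at 72 h, beside 0.87 and 2.28 for the members. Their summed level was 20.8 to 28.66 CPM in sham, 24.17, 51.39 and 17.22 CPM in replicates 1, 2 and 3 at 24 h and 527.7 to 725.3 CPM at 72 h. Cenpf, a kinetochore protein, made up 17.0, 10.8 and 9.20 CPM of the sham sums and 4.88, 3.18 and 1.19 CPM at 24 h. With Cenpf left out, a choice made after seeing the data, the sum was 10.0 to 12.9 CPM in sham and 19.3, 48.2 and 16.04 CPM at 24 h, above sham in all 3 libraries. Tpx2, a spindle assembly factor, went from 0.519 to 39.7 CPM (6.24 ± 0.31), and Cdc20, an activator of the anaphase-promoting complex, from 1.33 to 26.2 CPM (4.28 ± 0.21). The difference between these lists was not tested.

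**Figure D5:**
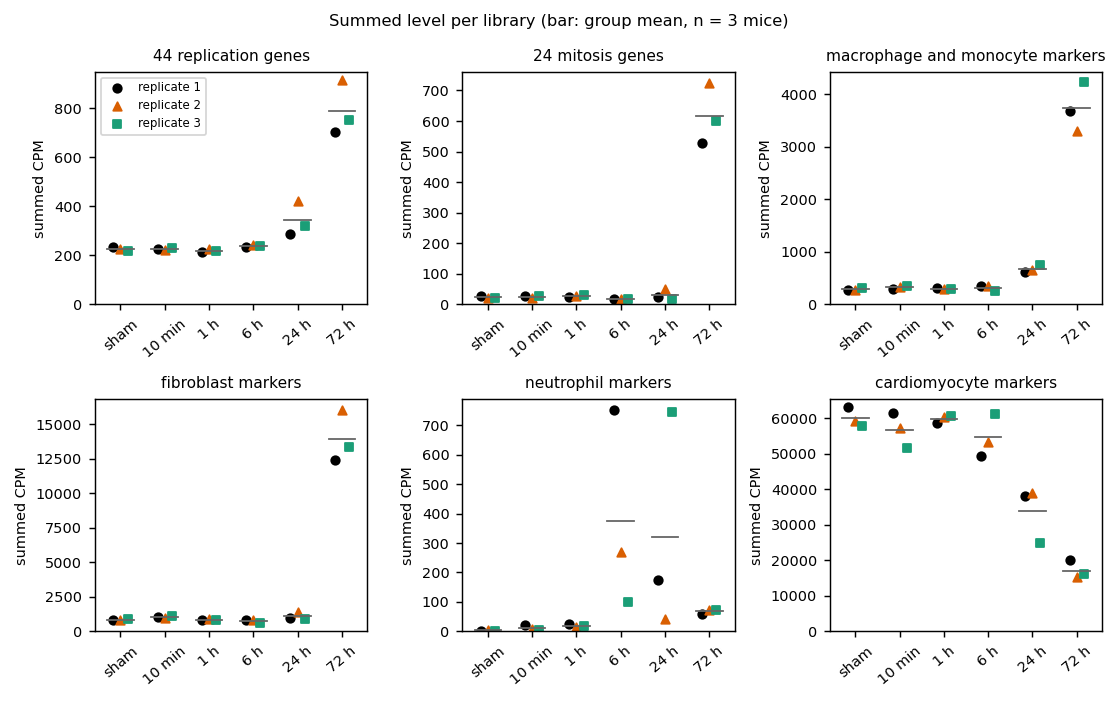
Summed CPM per library of the members, the mitosis genes and markers of macrophages and monocytes, fibroblasts, neutrophils and cardiomyocytes, by group, with replicates 1, 2 and 3 as different symbols. Among the 24 h libraries the member sum is above sham in all 3 and at 72 h both sums are above sham in all 3. The mitosis sum includes Cenpf, without which it is above sham in all 3 libraries at 24 h.

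Markers of other cells moved over the same times. Macrophage and monocyte markers summed to 270.2 to 310.8 CPM in sham, 621.5 to 743.8 at 24 h and 3294 to 4230 at 72 h, with 7 of 8 called higher at 24 h and 8 of 8 at 72 h. Fibroblast markers summed to 804.9 to 915.1 CPM in sham and 12450 to 16070 at 72 h (8 of 8 called higher), and cardiomyocyte markers went from 57860 to 63030 CPM down to 15220 to 20060 (8 of 8 called lower). Endothelial markers were at 1253 to 1392 CPM in sham and 766.9 to 1009 at 72 h (5 of 7 called lower, median log2 fold change -0.73 beside the 0.61 by which all genes moved without TMM scaling), and lymphocyte markers at 1.91 to 2.325 and 3.958 to 5.059 CPM. Ly6g, a neutrophil marker, was the only marker at 0 in a whole group, in sham and at 1 h. Replicate 2 at 72 h held the highest value of its group for 40 of 44 members (90.9%), against 37.0% of all genes. It had the highest fibroblast and the lowest macrophage sum of the 3. The part of these cell types in the change of the replication genes was not tested, and in whole tissue more cells of a type and more RNA per cell cannot be told apart.

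Members with and without an E2F-type motif were set side by side as a description. At 24 h the 15 with a match had a median log2 fold change of 1.17 (9 called higher), and the 21 without one 0.64 (12 called higher). At 72 h the medians were 2.45 and 2.29, with 15 of 15 and 19 of 21 called higher.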

How the data were processed

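RNA was sequenced from 18 mouse hearts, 1 library each, after oligo(dT) selection, random priming and PCR, per the labels' protocols. Reads were trimmed with cutadapt 1.18, aligned to mm10 with HISAT2 2.1.0 and counted with featureCounts, per the submitters' processing notes. The annotation and strand setting are not given in the sources used here. The authors deposited whole-number counts per Ensembl gene and FPKM. At 6 h, FPKM of replicate 2 matches the counts of replicate 3 and the reverse, which stays within 1 group. Lengths implied by FPKM equal GENCODE M21 exon lengths for 91.85% of 30222 genes, and coordinates are GENCODE's on GRCm38.

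The deposited counts were tested in R 4.3.3 with edgeR 4.0.16 (filterByExpr, which removed 14272 of 30583 genes; TMM; glmQLFit, robust; glmQLFTest, two-sided; Benjamini-Hochberg over 16311 genes). All 18 libraries shared 1 fit with a mean per group, with contrasts of each time against sham and the time before, and the scripts were tested on simulated data. Symbols matched 30489 IDs, and 94 did not match. The biological coefficient of variation was 0.149. Reads without molecular identifiers are not independent molecules, so counting intervals (95%) and the floor of 3 counts cover counting error only. The edgeR p-values set each group difference against a spread between mice that was estimated over all 6 groups and partly shared across genes. The libraries at 24 h were uneven, as given above, so this spread may not be theirs. Alternatives were RLE (DESeq2-type size factors) or no scaling, other filters, DESeq2 1.42.0, limma 3.58.1 on log2 FPKM with a pseudocount of 1 or 0.1, a replicate block, only the compared libraries, and each library left out.

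The members, lists, tests and alternatives were chosen with earlier results of these data known. Values in every library are printed for the member with the smallest adjusted p at 72 h in each role (2 in roles of 5 or more), every member lower than sham at any time or not called at 72 h, the 3 smallest adjusted p at 24 h, and Brca1. Each other list is shown by its 2 leading genes at 72 h by adjusted p, and by all lower genes where these were 3 or fewer. The promoter sequences are RefSeq's. Mice of the same number were treated as unpaired.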

Additional observations from a re-analysis of the deposited data

Results flagged for a closer look

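Gins3, Rfc3 and Brca1 were picked out because each lay below sham at 6 h and above 6 h at 24 h, with both steps past the test. The step from 6 h to 24 h gave a log2 fold change of 1.12 for Gins3, 1.49 for Rfc3 and 5.46 for Brca1. The step from sham to 6 h was -0.95, -0.64 and -3.40. The genes were chosen by these calls and both steps share the 6 h libraries, so the second step is no independent support. With each of the 6 libraries of sham and 6 h left out in turn, the calls at 6 h were lost in 3, 5 and 6 of the fits. The Brca1 values rest on 1 count at 6 h and 76 counts at 24 h, a ratio of 60.6 with a counting interval of 10.6 to 2424, and with so few counts the fitted changes of Brca1 depend on the prior count of the fit. Gins3 was 0.894, 1.00 and 1.23 CPM in the 6 h libraries and Rfc3 1.67, 2.34 and 2.13 CPM, with no overlap with sham in either. With only the 6 libraries compared in the fit, the step of Gins3 from 6 h to 24 h missed the threshold (1.12, adjusted p = 0.0610).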

How the results depend on the processing

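Counts of members called at 24 h (26) and 72 h (42) against sham stayed within 1.5 times under RLE or no scaling, DESeq2, limma on FPKM, the replicate block and each left-out library. Requiring at least 10 counts in every library, which tests 31 members, left 17 calls at 24 h. With only the 6 libraries compared, 9 members rose from 6 h to 24 h, with 1024 genes called in all against 4541 in the fit of 18 libraries, and 1 fell at 6 h and 2 rose from 1 h to 6 h. Without TMM scaling, 1 member was called higher at 6 h, 2 higher and 1 lower from 1 h to 6 h, and the summed level was 0.979-fold of sham at 6 h and 5.26-fold at 72 h. With no filter 1 was lower from 1 h to 6 h, and with DESeq2 2. With limma on log2(FPKM + 1), 0 were higher and 1 lower at 6 h and 0 higher from 1 h to 6 h, and with + 0.1, 0 higher at 6 h and 1 higher from 1 h to 6 h. The fold of summed levels per kilobase at 6 h was 1.09. The E2F-type share in upstream bases alone was 25.0%. The causes of these differences were not tested.

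Over left-out libraries, members called at 6 h ranged from 0 to 4 higher and 0 to 3 lower, from 1 h to 6 h from 1 to 5 higher and 0 to 1 lower, and from 6 h to 24 h from 16 to 30. The summed fold at 6 h ranged from 1.04 to 1.07. Against sham the counts were 21 to 30 at 24 h and 42 throughout at 72 h. Rpa2 at 72 h against sham turned from -0.10 to 0.49 without TMM scaling and to 0.41 and 0.48 with limma on FPKM + 1 and + 0.1. Rpa2 at 72 h against 24 h turned from -0.01 to 0.38, 0.34 and 0.39 under the same settings, and Pola2 at 72 h against 24 h from -0.01 to 0.34 with FPKM + 1. Over the named members' contrasts, 1300 values stayed on their side of the threshold, 71 were no longer called and 9 became called. Another 7 turned sign with a call in the main or the alternative fit. Changes of sign between uncalled values are counted among the 1300. At 24 h on log2(FPKM + 1), a scale that shrinks changes of low genes, the adjusted p was 0.133 for Brca1 and 0.0719 for Clspn.

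Mice of the same replicate number were treated as unpaired, and whether they share a batch was not tested. In deviations from the group means, 4 of 45 such pairs correlated above 0.1 (-0.256 to 0.252). Their median correlation was 0.0351, against -0.0128 for other pairs, and 9 of 18 libraries correlated best with their own number. With the replicate block the counts were 26 at 24 h, 42 at 72 h and 2 lower from 1 h to 6 h. Depth limits members with few sham counts, such as Brca1, Clspn, Orc1, Mcm10, Fanci and Exo1, whose fold at 72 h is known only within wide intervals or as a bound.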

Other observations

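Some genes that act on the same steps as the members were called lower at 72 h, and they are named here after their values were seen. Gmnn, the inhibitor of Cdt1, went from 57.0 to 27.0 CPM (log2 fold change -1.08 ± 0.17, adjusted p = 2.77e-05), while Cdt1 rose. Rrm2b, the p53-induced subunit that can stand in for Rrm2 in ribonucleotide reductase, went from 32.1 to 15.4 CPM (-1.06 ± 0.14), while Rrm2 rose. Ung, the uracil glycosylase, changed by -1.44 ± 0.26 and Wee1, a kinase that restrains entry into mitosis, by -1.16 ± 0.21. Without TMM scaling these differences were -0.49 for Gmnn, -0.47 for Rrm2b, -0.86 for Ung and -0.58 for Wee1. The histone chaperone Asf1a, called lower with a log2 fold change of -0.55, was at 0.04 without it.

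Of the mitosis genes, Cenpf, a kinetochore protein, stood apart. It was at 17.0, 10.8 and 9.20 CPM in sham, 4.88, 3.18 and 1.19 at 24 h and 18.2, 22.9 and 18.6 at 72 h, called lower at 24 h (-1.97 ± 0.35) and not called at 72 h (0.69 ± 0.31, adjusted p = 0.0624). It was singled out after its values were seen.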
